A study of Mus musculus with 6 samples.

Results

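A set of 50 genes of the tubulin, actin and myosin cytoskeleton was followed in 4T1, a mouse breast cancer cell line of BALB/c origin that grows as a tumour when implanted. The members were named by gene symbol, and all were found, each as 1 row, among the 55487 genes of the deposited count table. The 3 CEP libraries came from cells kept with 10 µM cepharanthine for 12 h, and the 3 DMSO libraries from cells kept for 12 h with an equal volume of dimethyl sulfoxide, the solvent. Cepharanthine is a bisbenzylisoquinoline alkaloid from Stephania plants. All cells were of this 1 line, no genetic change is named in the labels, and the question was how transcript levels differ with the drug. Nothing in the labels says whether the 3 libraries of a group came from separate cultures, so the p-values measure only the spread between these libraries, which may be technical.

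Microtubules are hollow polymers of alpha and beta tubulin dimers, which fold with the help of the CCT chaperonin, prefoldin and the tubulin cofactors, and which cells keep in balance partly by degrading tubulin messages when free dimers accumulate. Actin filaments grow from monomers held by profilin and thymosins, are branched by the Arp2/3 complex, extended by formins, cut by cofilin, capped by CapZ, coated by tropomyosin and pulled on by myosin II. SRF is a transcription factor that, with its cofactors MRTF-A and MRTF-B, drives many genes of the actin system. The MRTFs bind free actin monomers, which ties this programme to the state of actin in the cell.

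SRF binds a 10-base element called the CArG box (CC, then 6 bases of A or T, then GG). The sequences here are shown because the actin gene Actg1, the myosin light chain gene Myl6 and Srf itself were lower with cepharanthine and carry this box. Each is the 120 bases before a RefSeq transcription start on GRCm38.p6, written 5′ to 3′ on the gene's strand, with CArG boxes in capitals. The Actg1 window is chr11:120348496-120348615, the Srf window is chr17:46556163-46556282, and the Myl6 window, which precedes the second of the 2 starts listed for that gene, is chr10:128493010-128493129, all 3 on the minus strand.
Actg1: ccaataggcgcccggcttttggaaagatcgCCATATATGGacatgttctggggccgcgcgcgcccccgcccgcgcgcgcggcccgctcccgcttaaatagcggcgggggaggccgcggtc
Srf: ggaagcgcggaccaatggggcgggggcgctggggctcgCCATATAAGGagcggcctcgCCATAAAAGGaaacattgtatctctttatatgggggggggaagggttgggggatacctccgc
Myl6: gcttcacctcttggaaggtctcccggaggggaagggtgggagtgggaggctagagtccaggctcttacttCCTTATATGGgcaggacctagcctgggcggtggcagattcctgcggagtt
The box begins 90 bases before the start in Actg1, 82 and 62 bases before it in Srf, and 50 bases before the second start in Myl6. The promoter of the first Myl6 start held no box, and a member counts below as holding a box if any of its listed promoters did. RefSeq promoters, from 250 bases before to 50 bases after a start, were given for 43 of the 50 members, and 5 of these 43 (11.6%) held a CArG box, against 488 of all 27025 symbols with such a promoter (1.81%). The other members with a box were Arpc4, at 250 bases, which did not pass the test, and Myl9, at 161 bases, which was not tested. The 3 printed are thus those of the 5 that fell, and 19 of the 22 members that fell and have a promoter in the table held no box. The box reads the same class of letters on both strands, so 1 strand was searched. A match describes letters in this window and is no evidence of binding, and no match says only that these letters are not in it. Tubb2b, Tubb6, Tubg1, Stmn1, Actb, Arpc5l and Diaph1 were not in the promoter table.

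Across the list, levels were lower in CEP than in DMSO for most members, by small amounts. Of the 49 members that passed the low-count filter, 24 fell, 3 rose (Tubb2b, Diaph1 and Add3) and 22 did not pass the test (edgeR's quasi-likelihood method, p below 0.05 after Benjamini-Hochberg adjustment over all tested genes). The 27 called members were 55.1% of those tested, against 38.2% of all 13405 genes. In the downward direction 49% of the members were called, against 18.2% of all genes, and in the upward direction 6.12%, against 20.1%. The median log2 fold change of the members was -0.18, against 0.01 over all genes, and 42 of 49 members had a value below 0. The CEP and DMSO libraries did not overlap for 31 members (63.3%), against 49.9% of all genes. Of the 49 members, 28 were without overlap and lower in CEP, as were 24.7% of all genes. Add2 was the only member to change at least 2-fold, as 2.9% of all genes did. The members were chosen with earlier results of these data known, so these shares describe the list and are not independent support for its direction.

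**Figure D1:**
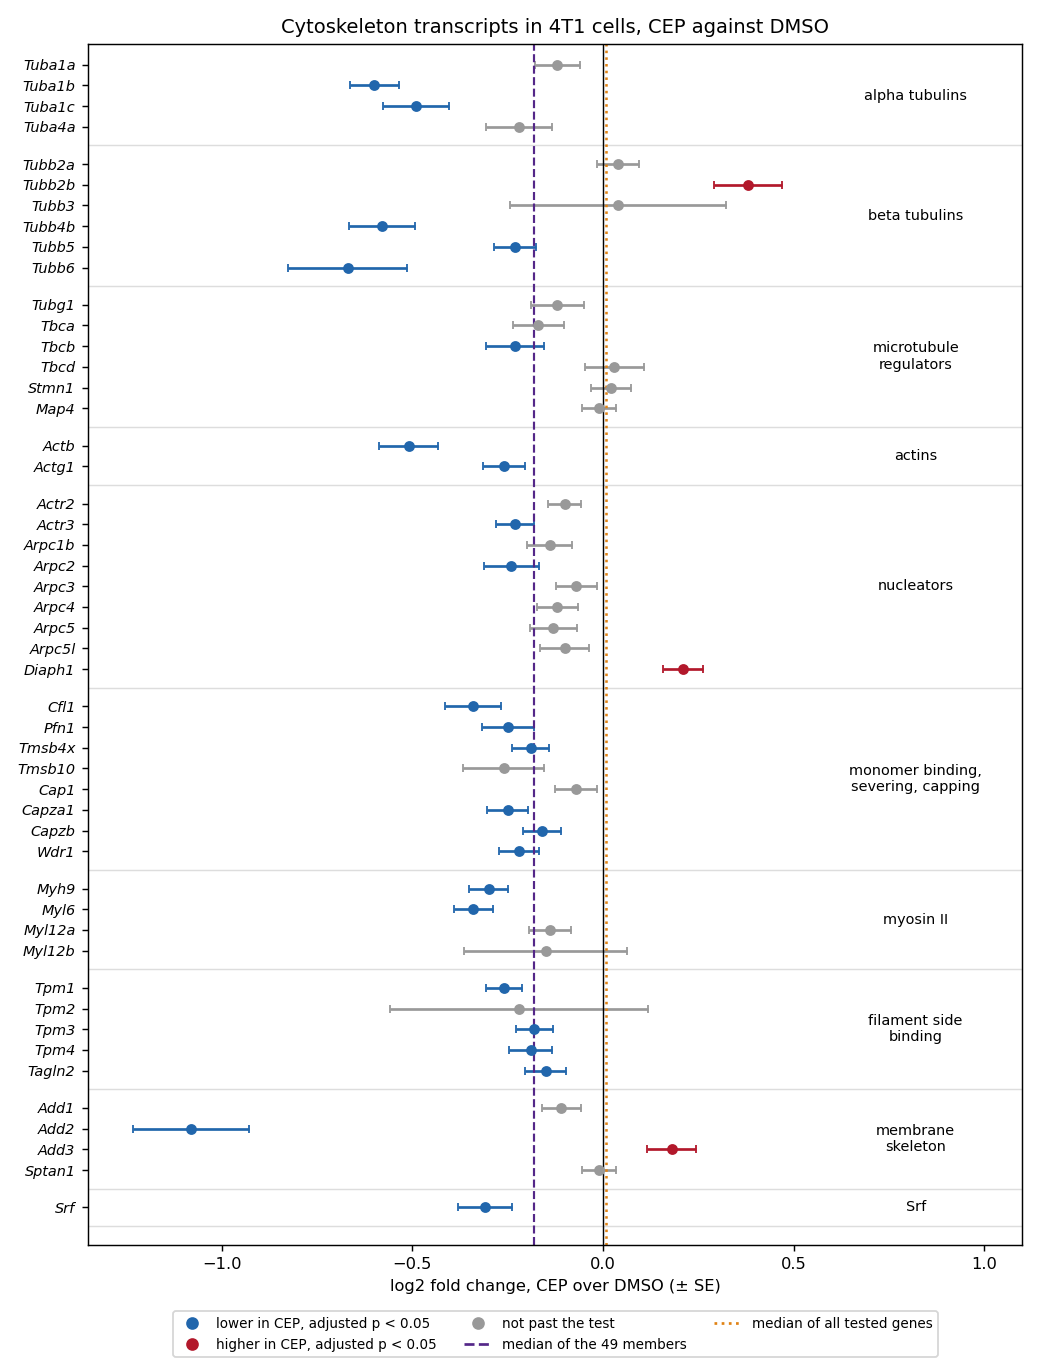
Log2 fold change of CEP over DMSO (horizontal axis, bars ± SE, n = 3 libraries per group) for the 49 tested members, ordered down the page by role. The members' median of -0.18 (dashed) lies left of the median of all tested genes at 0.01 (dotted). Adducin gene Add2 is lowest at -1.08, and Tubb2b, Diaph1 and Add3 are the points past the test on the right.

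Replicate 1 of CEP lay away from its group. Its score on the first principal component of all genes was 10.1, against 28.5 and 30.4 in CEP replicates 2 and 3, and the DMSO libraries scored from -23.8 to -21.9. The same library lay nearest to DMSO for the cytoskeleton members. Among the 24 members that fell, the median distance from the DMSO mean was -0.16 in CEP replicate 1 and -0.32 in both CEP replicates 2 and 3 on the log2 scale, and CEP replicate 1 was the highest CEP library for 23 of the 24. For all 2434 genes that fell, the same medians were -0.23, -0.33 and -0.35. Without CEP replicate 1, 37 members fell and 3 rose, and with DMSO replicate 3 left out 17 fell and 2 rose, the lowest count among the libraries left out in turn. Calls over all genes moved with them: 50.6% were called (25.7% lower) without CEP replicate 1, and 27.3% (12.6% lower) without DMSO replicate 3. The cause of this library's position was not tested.

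**Figure D2:**
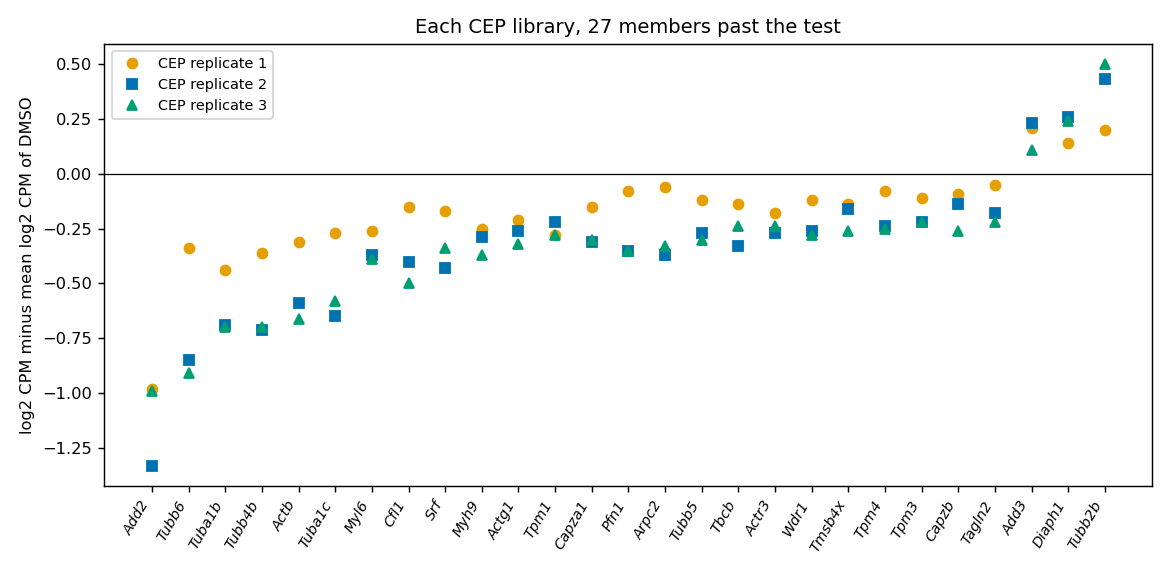
Log2 CPM of each CEP library minus the mean log2 CPM of the 3 DMSO libraries, for the 27 members past the test, ordered from Add2 at the left to Tubb2b at the right. CEP replicate 1 (circles) lies closest to 0 for most members that fell, as its median of -0.16 against -0.32 in the other CEP libraries shows. Only for Tpm1 is another CEP library, replicate 2, nearer to DMSO among those that fell.

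Total counts ran from 15299261 to 19411816 in CEP and from 15334482 to 19655010 in DMSO. Levels here are CPM, counts divided by the library's size after TMM scaling, apart from sums over marker lists, which used total counts without TMM scaling. All 8 epithelial markers were detected in these carcinoma cells, where their summed level was 3883 to 4271 CPM in CEP and 4352 to 4456 CPM in DMSO. Of these markers 5 rose, Krt19, Epcam, Cdh1, Cldn4 and Cldn7, and 3 fell, the keratin genes Krt8, Krt18 and Krt7. None of 6 leukocyte, 5 endothelial and 6 muscle markers passed the low-count filter, and no such list summed to more than 0.588 CPM in a library (Adgre1 and Kdr were among those at 0 in all). Of 7 fibroblast markers 2 passed, with Col3a1 and Lum at 0, and the list summed to 84.4 to 102 CPM in CEP and 62.5 to 70.1 CPM in DMSO. Nearly all of that sum was Pdgfra, which rose, at 94.1 CPM in CEP against 65.8 CPM in DMSO (log2 fold change 0.52, edgeR adjusted p = 4.40e-05). The part of any fibroblasts or other such cells in the results was not tested. Fewer cells of a type and less RNA per cell cannot be told apart in bulk RNA.

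The alpha tubulin genes Tuba1b and Tuba1c fell, while Tuba1a and Tuba4a did not pass the test. Of these 4 genes 50% were lower, against 18.2% of all genes. Tuba1b (ENSMUSG00000023004, chromosome 15, 98931425 to 98934565 on GRCm38.p6) stood at 225, 189 and 188 CPM in CEP replicates 1, 2 and 3, and at 303, 297 and 315 CPM in DMSO replicates 1, 2 and 3. Every CEP library was below every DMSO library, and the log2 fold change was -0.60 ± 0.0641 (SE, edgeR adjusted p = 1.02e-05). Tuba1c stood at 268, 206 and 215 CPM in CEP and at 331, 315 and 320 CPM in DMSO, again with no overlap (-0.49 ± 0.0858, edgeR adjusted p = 0.00144). Tuba1a, the alpha tubulin prominent in young neurons, had a log2 fold change of -0.12 ± 0.0588 (edgeR adjusted p = 0.123) and overlapping groups. Tuba4a had 226, 175 and 176 CPM in CEP and 222, 223 and 226 CPM in DMSO, so that CEP replicate 1 alone lay at the DMSO level (-0.22 ± 0.0873, edgeR adjusted p = 0.0732). With all 6 libraries Tuba4a did pass under DESeq2 (-0.23, adjusted p = 0.0239), limma-voom (-0.23, adjusted p = 0.0397), upper-quartile scaling (-0.25, edgeR adjusted p = 0.0428) and no low-count filter (-0.23, edgeR adjusted p = 3.64e-04). With CEP replicate 1 left out, 25.7% of all genes were called lower. All 4 alpha tubulin genes fell in that fit, Tuba1a by 0.18 (edgeR adjusted p = 0.00178, alternatives 0.00178 to 0.495) and Tuba4a by 0.37 (edgeR adjusted p = 7.04e-10, alternatives 7.04e-10 to 0.216). Tuba1a, Tuba1b and Tuba1c are near copies, so their separate counts are uncertain. Of the distinct 50-base words in their transcripts, 72.9%, 66.7% and 52.7% also occur in transcripts of other genes (GENCODE M21), against 0.807% for Tuba4a. Exons of Stk16 on the opposite strand overlap 37.3% of the Tuba4a exon bases, and the strand setting of the counting is not given in the sources used here. Summed over the 4 genes, alpha tubulin stood at 945, 773 and 788 CPM in CEP and at 1076, 1087 and 1086 CPM in DMSO.

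Beta tubulin isotypes moved in both directions. Tubb5, the class I isotype made by most dividing cells, Tubb4b and Tubb6 fell, Tubb2b rose, and Tubb2a and Tubb3 did not pass the test. Of these 6 genes 50% were lower and 16.7% higher, against 18.2% and 20.1% of all genes. Tubb6 (ENSMUSG00000001473, chromosome 18, 67390717 to 67402749) stood at 363, 256 and 245 CPM in CEP and at 457, 452 and 470 CPM in DMSO. All 3 CEP libraries were lower, but replicate 1 lay near the middle between the other CEP libraries and DMSO (log2 fold change -0.67 ± 0.155, edgeR adjusted p = 0.018). With no low-count filter the call ended (-0.68, edgeR adjusted p = 0.0959, alternatives 1.64e-20 to 0.0959). Tubb4b (ENSMUSG00000036752, chromosome 2, 25222160 to 25224702) had 382, 298 and 302 CPM in CEP and 504, 470 and 495 CPM in DMSO (-0.58 ± 0.0860, edgeR adjusted p = 5.06e-04). Pseudogenes share 37.8% of its 50-base words. Tubb5 (ENSMUSG00000001525, chromosome 17, 35833921 to 35838306) was the most abundant tubulin gene of the list per exon length, at 651 CPM per kb in CEP and 762 CPM per kb in DMSO. Its level was 1854, 1671 and 1645 CPM in CEP and 1980, 2014 and 2065 CPM in DMSO, which did not overlap (-0.23 ± 0.0552, edgeR adjusted p = 0.00469).

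Tubb2b (ENSMUSG00000045136, chromosome 13, 34126748 to 34130466), a class II isotype found mainly in nervous tissue, had 27.9, 33.0 and 34.6 CPM in CEP and 24.3, 23.4 and 25.6 CPM in DMSO. Every CEP library was above every DMSO library (0.38 ± 0.0882, edgeR adjusted p = 0.00383). Its neighbour and near copy Tubb2a had 59.8, 57.2 and 59.5 CPM in CEP and 57.4, 55.9 and 58.3 CPM in DMSO, with overlapping groups (0.04 ± 0.0557, edgeR adjusted p = 0.602). Other genes share 36.9% of the 50-base words of Tubb2b and 49.6% of those of Tubb2a. The neuronal class III gene Tubb3 was near the detection floor, between 1.31 and 1.43 CPM in CEP and 1.13 and 1.64 CPM in DMSO.

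Because the abundant isotypes moved unequally, the make-up of the tubulin and actin transcript pools, as counted, differed between the groups. Per exon length, Tubb5 made up 60.9 ± 2.05% of the 6 beta tubulin genes in CEP and 55.3 ± 0.724% in DMSO (SD, n = 3 each). Tubb6 made up 15.2 ± 1.83% in CEP and 19.0 ± 0.0509% in DMSO, and Tubb4b 19.1 ± 0.824% in CEP and 22.2 ± 0.698% in DMSO. Among the alpha tubulins Tuba1b made up 27.6 ± 0.387% in CEP and 32.1 ± 0.954% in DMSO, and Tuba1a 28.5 ± 1.45% in CEP and 23.6 ± 1.63% in DMSO. The CEP and DMSO libraries did not overlap for any of these shares. They rest on the exon length that the authors' table gives for each gene, and no test was run on them. The shares of Tuba1a and Tuba1b also rest on counts that are uncertain between near copies. Exons of Gm49450 on the same strand overlap 26.2% of the Tuba1a exon bases and 22.7% of those of Tuba1b.

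**Figure D3:**
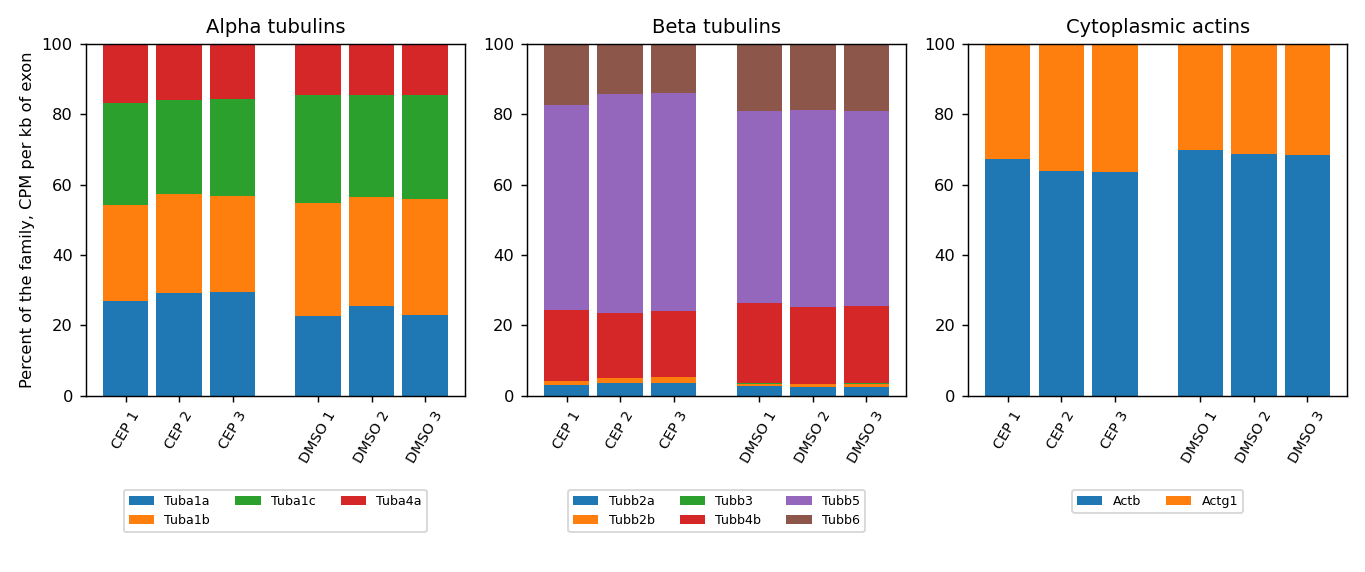
Share of each gene (vertical axis, percent of the family's CPM per kb of exon) in each of the 3 CEP libraries, left, and the 3 DMSO libraries, right, for 4 alpha tubulins, 6 beta tubulins and 2 actins. Tubb5 takes the largest part of beta tubulin in all 6 libraries, with a mean of 60.9% in CEP and 55.3% in DMSO, and Tubb3 is too small to see.

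A ratio of paralogs within a library does not depend on how libraries are scaled. Counts of Tubb6 over Tubb5 gave log2 ratios of -2.35, -2.71 and -2.75 in CEP and -2.12, -2.16 and -2.13 in DMSO, a difference of -0.47. The ratio was lower in every CEP library than in every DMSO library. Tubb4b over Tubb5 differed by -0.36, Tubb2a over Tubb5 by 0.27 and Tuba4a over Tuba1b by 0.38, also with no overlap. Each of these had an exact two-sided permutation p of 0.1, the smallest that 3 libraries against 3 allow, and an adjusted p of 0.157 over the 11 ratios compared, so none could pass the threshold. Tuba1c over Tuba1b differed by 0.11 with overlapping groups (exact permutation p = 0.2, adjusted p = 0.275).

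**Figure D4:**
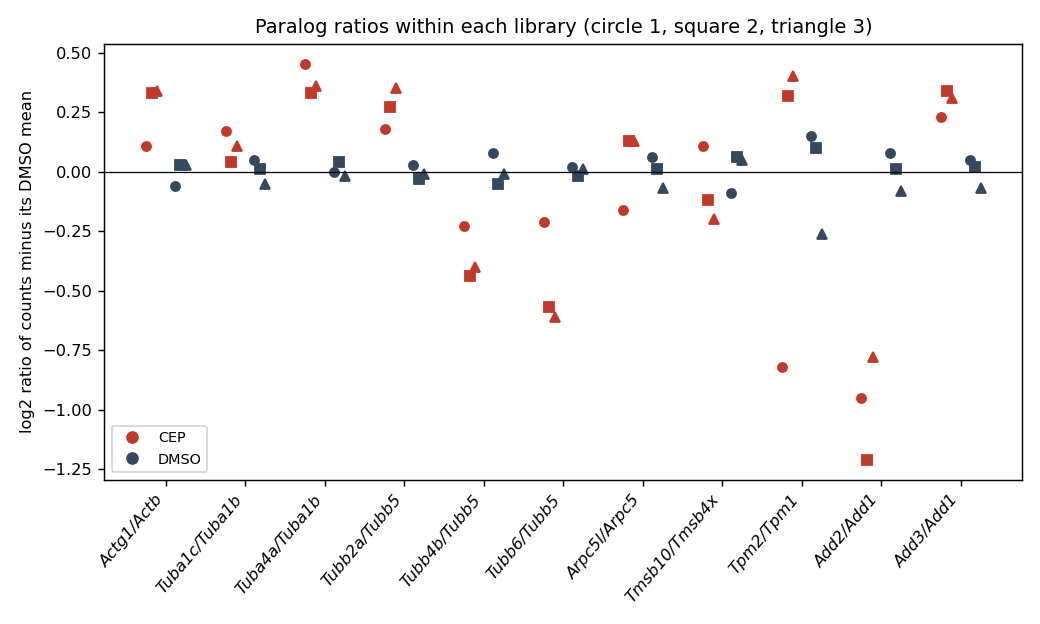
Log2 ratio of counts of 2 paralogs in each library minus its mean over the DMSO libraries (vertical axis), for 11 ratios, with CEP libraries left and DMSO libraries right at each. For Add2/Add1 the CEP libraries lie lowest relative to DMSO by mean difference, -0.99, and Tpm2/Tpm1 spreads widely within CEP.

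Among the 6 members for gamma tubulin and for folding, sequestering or binding tubulin, Tbcb fell and Tubg1, Tbca, Tbcd, Stmn1 and Map4 did not pass the test. The 16.7% lower was near the 18.2% of all genes, and the 16.7% called stood against 38.2%. Tbcb, a cofactor that handles alpha tubulin, averaged 27.6 ± 1.83 CPM in CEP against 32.4 ± 1.30 CPM in DMSO (SD, n = 3 each), with no overlap (-0.23 ± 0.0761, edgeR adjusted p = 0.0264). Polr2i exons on the opposite strand overlap 22.5% of its exon bases. Its call ended without CEP replicate 2 (edgeR adjusted p = 0.114), CEP replicate 3 (0.069), DMSO replicate 1 (0.0721) or DMSO replicate 3 (0.109, alternatives 0.0017 to 0.114). Tbca, a cofactor that captures beta tubulin, had 63.1, 66.0 and 58.2 CPM in CEP and 67.5, 76.3 and 67.1 CPM in DMSO, so that the groups did not overlap (-0.17 ± 0.0669, edgeR adjusted p = 0.0562). It passed without CEP replicate 1 (-0.19, edgeR adjusted p = 0.0111), without CEP replicate 2 (-0.21, 0.0489) and under 5 other settings (alternatives 0.0111 to 0.261). Tubg1, the gamma tubulin that nucleates microtubules at centrosomes, stood at -0.12 ± 0.0695 and passed only without CEP replicate 1 (-0.21, edgeR adjusted p = 0.00174, alternatives 0.00174 to 0.512). Values lay close to 0 for Tbcd (0.03 ± 0.0769), the tubulin-sequestering protein gene Stmn1 (0.02 ± 0.0526) and the microtubule-binding protein gene Map4 (-0.01 ± 0.0450).

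Among genes of tubulin folding and modification outside the members, 12 of 25 tested fell, 4 rose and 9 did not pass, with a median log2 fold change of -0.17. The 64% called and the 48% lower stood against 38.2% and 18.2% of all genes. The falls included 7 of the 8 CCT subunit genes, with a median of -0.31 over the 8, and 5 of the 6 prefoldin genes, with a median of -0.22. CCT folds both actin and tubulin, and prefoldin delivers them to it. Cct6a averaged 317 ± 26.7 CPM in CEP against 426 ± 5.26 CPM in DMSO (-0.42 ± 0.0566, edgeR adjusted p = 5.66e-05), and Pfdn1 averaged 68.6 ± 4.70 CPM in CEP against 95.2 ± 2.81 CPM in DMSO (-0.47 ± 0.0585, edgeR adjusted p = 2.94e-05). Cct3 fell by 0.31 ± 0.0454 on the log2 scale. The 4 that rose were Vash1 (0.77 ± 0.174) and Vash2 (0.40 ± 0.0855), whose products remove the last tyrosine of alpha tubulin, Atat1 (0.74 ± 0.204), the alpha tubulin acetyltransferase gene, and the cofactor gene Tbce (0.25 ± 0.0930, edgeR adjusted p = 0.0488). Tbce passed under 5 of the 15 alternatives (0.0038 to 0.261 over all of them), and not without CEP replicate 2 or 3 or any 1 DMSO library (edgeR adjusted p = 0.0617 to 0.261). The call of Atat1 ended without CEP replicate 3 or either of DMSO replicates 2 and 3 (edgeR adjusted p = 0.06, 0.0639 and 0.0694, alternatives 3.43e-08 to 0.0694). Counts of this list moved with single libraries: 8 fell and 2 rose without CEP replicate 3, 8 fell and 3 rose without CEP replicate 2, and 2 rose without DMSO replicate 2 or DMSO replicate 3. Without CEP replicate 1, 14 fell and 6 rose. With 1 library left out, 2 to 6 prefoldin genes fell (2 without CEP replicate 2 or 3 or DMSO replicate 1, and 3 without DMSO replicate 2), and 6 to 8 CCT genes fell.

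Of 22 tested microtubule-binding genes 3 fell, 1 rose and 18 did not pass, so that 18.2% were called, against 38.2% of all genes. The plus-end protein genes of the EB family went apart: Mapre1 fell (-0.37 ± 0.0538, edgeR adjusted p = 1.10e-04), with 149 ± 11.1 CPM in CEP against 193 ± 1.51 CPM in DMSO, and Mapre3 rose (0.80 ± 0.143, edgeR adjusted p = 9.09e-04), with 22.2 ± 4.55 CPM in CEP against 12.8 ± 1.27 CPM in DMSO. Mapre2 (-0.22 ± 0.0827) and Map1b (-0.18 ± 0.0493) also fell. Mapre2 did not pass with DESeq2 (adjusted p = 0.0504) or without any 1 library other than CEP replicate 1 (edgeR adjusted p = 0.0905 to 0.193, alternatives 9.71e-06 to 0.193). Map1b lost its call without CEP replicate 2, CEP replicate 3 or either of DMSO replicates 2 and 3 (edgeR adjusted p = 0.053, 0.0517, 0.062 and 0.052, alternatives 2.34e-06 to 0.062). This count was 4 lower and 4 higher without CEP replicate 1, and 1 lower and 1 higher without CEP replicate 2 or DMSO replicate 3. It was 1 lower and 2 higher without CEP replicate 3 or DMSO replicate 2, and 2 lower and 1 higher without DMSO replicate 1. Of 5 other tubulin genes past the filter only Tubb4a was called, higher (0.77 ± 0.282, edgeR adjusted p = 0.0445), at 2.29 ± 0.354 CPM in CEP against 1.36 ± 0.387 CPM in DMSO. That call ended without CEP replicate 2, CEP replicate 3 or either of DMSO replicates 2 and 3 (edgeR adjusted p = 0.0869, 0.168, 0.0723 and 0.205), with upper-quartile scaling (0.0532) and with DESeq2 (adjusted p = 0.0934, alternatives 0.0188 to 0.205). Of the 5 other tubulin genes 20% were higher, near the 20.1% of all genes.

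Both cytoplasmic actin genes fell, Actb by more than Actg1. Actb (ENSMUSG00000029580, chromosome 5, 142903115 to 142906754), whose beta actin message is a common reference in expression assays, stood at 2461, 2028 and 1927 CPM in CEP and at 2965, 3108 and 3087 CPM in DMSO. No CEP library reached the lowest DMSO library (-0.51 ± 0.0777, edgeR adjusted p = 2.77e-04). Actg1 (ENSMUSG00000062825, chromosome 11, 120345690 to 120348542), which encodes gamma actin and carries the CArG box shown above, stood at 1210, 1162 and 1117 CPM in CEP and at 1303, 1446 and 1441 CPM in DMSO. The groups did not overlap (-0.26 ± 0.0551, edgeR adjusted p = 0.00178). The log2 ratio of Actg1 to Actb counts was -1.02, -0.80 and -0.79 in CEP and -1.19, -1.10 and -1.10 in DMSO, higher in every CEP library (difference 0.26, exact permutation p = 0.1, adjusted p = 0.157). Per exon length, Actg1 made up 35.0 ± 2.08% of the pair in CEP and 31.0 ± 0.725% in DMSO (SD, n = 3 each). Other genes share 37.4% of the 50-base words of Actg1 and 9.12% of those of Actb, so part of their reads may not have been counted.

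**Figure D5:**
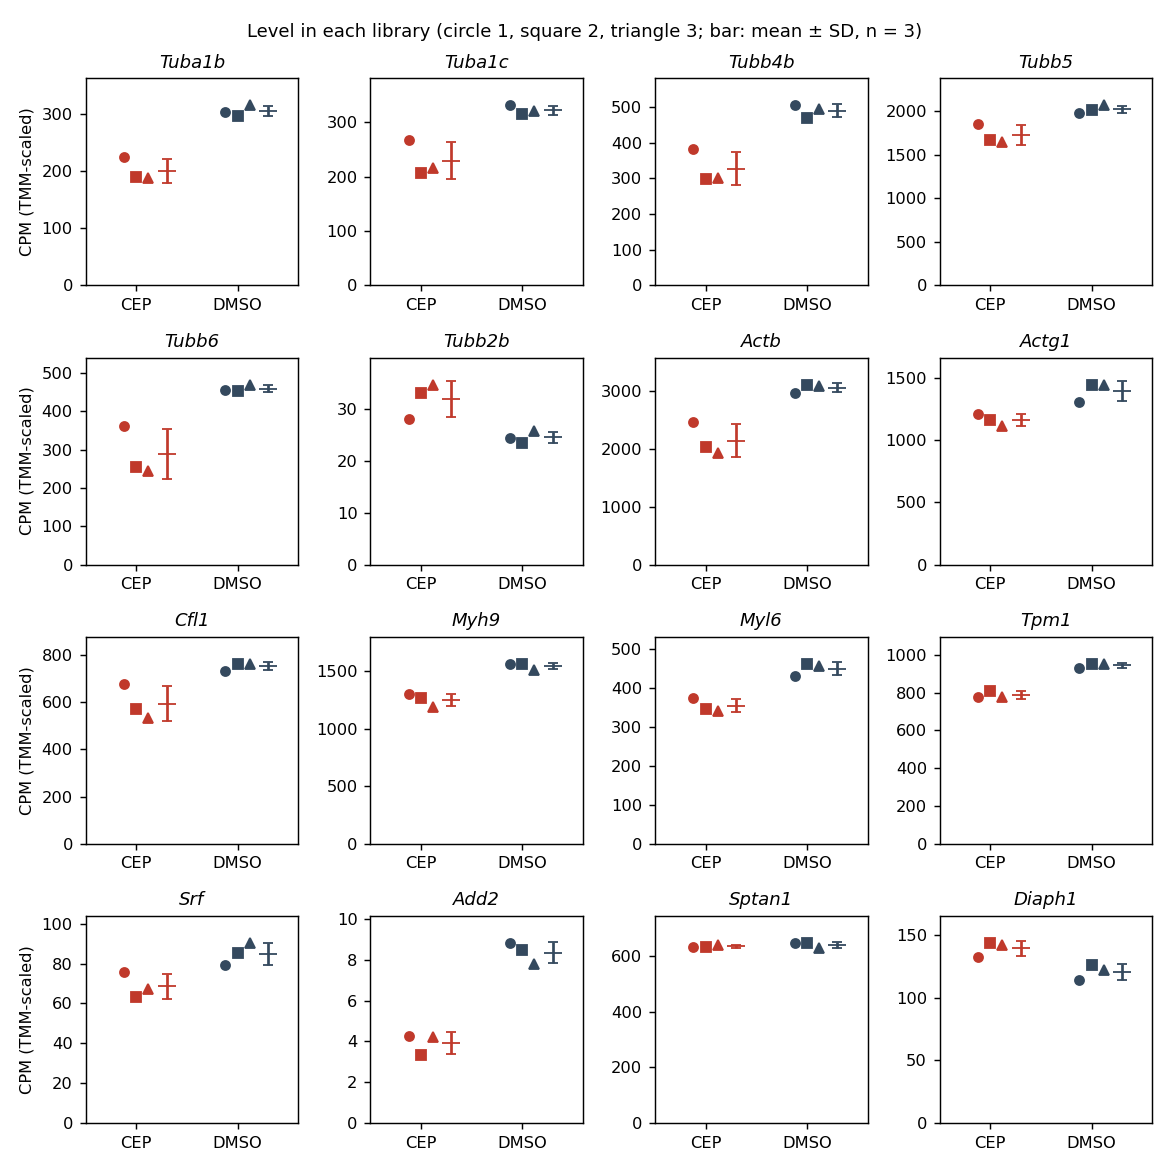
TMM-scaled CPM (vertical axes from 0) of 16 members in the 3 CEP libraries, left, and the 3 DMSO libraries, right, with each group's mean ± SD (n = 3) beside its points. Actb is at 1927 to 2461 in CEP and 2965 to 3108 in DMSO, the CEP points are highest for replicate 1 (circle) in most panels where CEP is lower, and Sptan1 shows overlapping groups.

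Nucleators of actin filaments were lower by small amounts or did not differ beyond the test, apart from the formin gene Diaph1, which rose. Of the 9 nucleator genes 33.3% were called and 22.2% were lower, near the 38.2% and 18.2% of all genes. Of the 8 Arp2/3 complex genes, Actr3 and Arpc2 fell and Actr2, Arpc1b, Arpc3, Arpc4, Arpc5 and Arpc5l did not pass. All 8 had negative values, from -0.24 to -0.07. Actr3, one of the actin-related proteins that seed the branch, averaged 239 ± 7.41 CPM in CEP against 281 ± 13.1 CPM in DMSO (-0.23 ± 0.0493, edgeR adjusted p = 0.00219). Pseudogenes share 26.3% of the 50-base words of Actr3. Arpc2, a core subunit, averaged 246 ± 29.8 CPM in CEP against 292 ± 9.22 CPM in DMSO (-0.24 ± 0.0714, edgeR adjusted p = 0.0173). Its call ended without CEP replicate 2, CEP replicate 3 or either of DMSO replicates 2 and 3 (edgeR adjusted p = 0.0767, 0.0721, 0.0678 and 0.0553, alternatives 7.70e-10 to 0.0767). Arpc3, the most abundant of these 9 genes per exon length, had 133, 125 and 119 CPM in CEP and 126, 138 and 133 CPM in DMSO, with overlap (-0.07 ± 0.0536, edgeR adjusted p = 0.315). The paralogs Arpc5 (-0.13 ± 0.0615) and Arpc5l (-0.10 ± 0.0641) did not separate: their log2 ratio differed by 0.03 with overlap (exact permutation p = 0.8, adjusted p = 0.88). On leaving out CEP replicate 1, 25.7% of all genes were called lower. In that fit Actr2, Arpc1b, Arpc3, Arpc4 and Arpc5 also fell, which made 7 of the 8. Their edgeR adjusted p ran from 1.85e-06 for Arpc1b (alternatives 1.85e-06 to 0.285) to 0.0143 for Arpc3 (alternatives 0.0143 to 0.703). With CEP replicate 2, CEP replicate 3, DMSO replicate 2 or DMSO replicate 3 left out, only 1 of the 9 nucleator genes fell. Of all genes, 12.6% to 13.4% were called lower in those fits. Diaph1 (ENSMUSG00000024456, chromosome 18, 37843601 to 37935476), which encodes a formin that extends unbranched filaments, had 133, 144 and 142 CPM in CEP and 114, 126 and 122 CPM in DMSO. It was higher in all 3 CEP libraries (0.21 ± 0.0525, edgeR adjusted p = 0.00543), and the call held under each of the 15 alternatives.

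Of the 8 genes for monomer binding, severing and capping, 6 fell and Tmsb10 and Cap1 did not pass. The 75% lower stood against 18.2% of all genes. Cfl1 (ENSMUSG00000056201, chromosome 19, 5490455 to 5495201), which encodes the severing factor cofilin, stood at 678, 571 and 534 CPM in CEP and at 732, 763 and 762 CPM in DMSO. The groups did not overlap, with CEP replicate 1 nearest to DMSO (-0.34 ± 0.0734, edgeR adjusted p = 0.00303). Snx32 exons on the opposite strand overlap 16.5% of its exon bases. Wdr1, which assists cofilin, fell by 0.22 ± 0.0520 on the log2 scale, and the capping protein genes Capza1 and Capzb fell by 0.25 ± 0.0534 and 0.16 ± 0.0508. Pseudogenes share 61.4% of the 50-base words of Capza1. Pfn1, which encodes profilin, averaged 553 ± 61.4 CPM in CEP against 660 ± 24.0 CPM in DMSO (-0.25 ± 0.0682, edgeR adjusted p = 0.0102). The thymosin gene Tmsb4x, whose product holds actin monomers, averaged 176 ± 7.72 CPM in CEP against 201 ± 2.91 CPM in DMSO (-0.19 ± 0.0474, edgeR adjusted p = 0.00592). Tmsb10, its relative and the most abundant of these genes per exon length, had 525, 441 and 389 CPM in CEP and 495, 563 and 561 CPM in DMSO. CEP replicate 1 lay inside the DMSO range (-0.26 ± 0.106, edgeR adjusted p = 0.0915), and the log2 ratio of Tmsb10 to Tmsb4x differed by -0.07 with overlap (exact permutation p = 0.6, adjusted p = 0.733). Cap1, which recycles actin monomers, had a value of -0.07 ± 0.0550. Without CEP replicate 1, 25.7% of all genes were called lower. All 8 of these genes fell in that fit, Tmsb10 by 0.39 (edgeR adjusted p = 0.00465, alternatives 9.80e-05 to 0.196) and Cap1 by 0.15 (edgeR adjusted p = 5.59e-04, alternatives 5.59e-04 to 0.732). The call of Pfn1 ended without CEP replicate 2 or DMSO replicate 3 (edgeR adjusted p = 0.0533 and 0.0531, alternatives 1.94e-10 to 0.0533). That of Capzb ended without CEP replicate 2, CEP replicate 3 or either of DMSO replicates 2 and 3 (edgeR adjusted p = 0.0526, 0.111, 0.0927 and 0.0677, alternatives 6.12e-05 to 0.111), which left 4 genes lower without CEP replicate 2 or DMSO replicate 3. Of all genes, 13.1% were called lower without CEP replicate 2 and 12.6% without DMSO replicate 3.

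The list of other actin regulators moved both ways: of 33 tested, 11 fell, 6 rose and 16 did not pass, with a median of -0.05. The 51.5% called (33.3% lower, 18.2% higher) stood against 38.2% of all genes (18.2% lower, 20.1% higher). Wasl, whose product N-WASP switches on the Arp2/3 complex, rose (0.85 ± 0.0492, edgeR adjusted p = 2.41e-08), with 136 ± 1.08 CPM in CEP against 75.4 ± 3.0 CPM in DMSO (SD, n = 3 each). Ssh3, a slingshot family gene (other members of this family activate cofilin), rose by 0.58 ± 0.0927 and the coronin gene Coro1b by 0.23 ± 0.0447. Those that fell most clearly were the bundling protein genes Pls3 (-0.44 ± 0.0529) and Fscn1 (-0.40 ± 0.0552) and the cortactin gene Cttn (-0.33 ± 0.0476). Cttn encodes a stabiliser of Arp2/3 branches and averaged 355 ± 15.9 CPM in CEP against 446 ± 5.72 CPM in DMSO.

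Myosin II is a hexamer of heavy chains, essential light chains and regulatory light chains. Among the members, the heavy chain gene Myh9 and the essential light chain gene Myl6 fell, and the regulatory light chain genes Myl12a and Myl12b did not pass. Of these 4 genes 50% were lower, against 18.2% of all genes. Non-muscle chains outside the members did not share this direction throughout. The heavy chain gene Myh14 rose (0.81 ± 0.157, edgeR adjusted p = 0.00142), with 16.3 ± 3.51 CPM in CEP against 9.20 ± 1.11 CPM in DMSO, and kept its call under the 15 alternatives. Myh10, a further heavy chain gene, had 435 ± 13.8 CPM in CEP against 473 ± 16.2 CPM in DMSO and did not pass (-0.12 ± 0.0479, edgeR adjusted p = 0.0641), nor did the light chain gene Myl6b (0.26 ± 0.117, edgeR adjusted p = 0.0924). Myh9 (ENSMUSG00000022443, chromosome 15, 77760587 to 77842175) stood at 1299, 1266 and 1194 CPM in CEP and at 1560, 1566 and 1515 CPM in DMSO, with no overlap (-0.30 ± 0.0501, edgeR adjusted p = 3.18e-04). Myl6 (ENSMUSG00000090841, chromosome 10, 128490860 to 128494145), with the CArG box shown above at only the second of its listed starts, stood at 374, 347 and 342 CPM in CEP and at 431, 462 and 456 CPM in DMSO. Again no CEP library reached a DMSO library (-0.34 ± 0.0508, edgeR adjusted p = 1.35e-04). Myl12a had 54.7, 56.8 and 55.4 CPM in CEP and 59.9, 61.8 and 61.6 CPM in DMSO. Its groups did not overlap (-0.14 ± 0.0550, edgeR adjusted p = 0.0639), and it passed without CEP replicate 1 (-0.14, edgeR adjusted p = 0.0417, alternatives 0.0244 to 0.168). Myl12b was listed at 2.54 to 2.91 CPM in CEP and 2.71 to 3.81 CPM in DMSO, and 26.7% of its exon bases overlap a second gene of the same symbol in GENCODE M21, so this level is uncertain. Myl9, the regulatory light chain gene typical of smooth muscle, had 1 read in CEP replicate 1 and 0 in the other 5 libraries, and was the member that did not pass the filter.

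Of 5 genes whose products coat the sides of actin filaments, Tpm1, Tpm3, Tpm4 and Tagln2 fell, and Tpm2 did not pass. The 80% lower stood against 18.2% of all genes. Tpm1 (ENSMUSG00000032366, chromosome 9, 67022590 to 67049406) stood at 778, 810 and 775 CPM in CEP and at 929, 951 and 953 CPM in DMSO. The groups were well apart and CEP replicate 1 lay among the other CEP libraries (-0.26 ± 0.0463, edgeR adjusted p = 5.48e-04). Tpm3 fell by 0.18 ± 0.0490 and Tpm4 by 0.19 ± 0.0572, and the transgelin-2 gene Tagln2 fell by 0.15 ± 0.0539, Tpm4 and Tagln2 with overlap between the groups. Other genes share 23.2% of the 50-base words of Tpm3 and 11.7% of those of Tpm4. Calls in this set changed with single libraries left out, with 2 falling without CEP replicate 2 or 3 or DMSO replicate 2, and only Tpm1 without DMSO replicate 3. Of all genes, 12.6% to 13.4% were called lower in these fits. Without DMSO replicate 3 the edgeR adjusted p was 0.0649 for Tpm3 (alternatives 5.14e-06 to 0.0649), 0.0722 for Tpm4 (alternatives 4.81e-07 to 0.0937) and 0.114 for Tagln2 (alternatives 9.27e-06 to 0.185), while their log2 fold changes were -0.16, -0.18 and -0.15, close to those with all libraries. Tpm4 and Tagln2 also failed without CEP replicate 2 (edgeR adjusted p = 0.0829 and 0.144), CEP replicate 3 (0.0646 and 0.157) and DMSO replicate 2 (0.0937 and 0.185). Tpm2 was barely expressed, at 0.680, 1.56 and 1.57 CPM in CEP and 1.59, 1.58 and 1.23 CPM in DMSO.

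Adducins and spectrin link actin to the plasma membrane, and their genes split. Add2 (ENSMUSG00000030000, chromosome 6, 86028681 to 86124409), the beta adducin best known from red cells and neurons, stood at 4.24, 3.32 and 4.20 CPM in CEP and at 8.83, 8.47 and 7.78 CPM in DMSO. The CEP libraries lay near a common low level, without overlap (-1.08 ± 0.152, edgeR adjusted p = 8.84e-05). Add3, gamma adducin, rose (0.18 ± 0.0644, edgeR adjusted p = 0.0371), with 52.7 ± 2.32 CPM in CEP against 46.5 ± 2.33 CPM in DMSO. That call ended without CEP replicate 2 or either of DMSO replicates 2 and 3 (edgeR adjusted p = 0.127, 0.0833 and 0.186), with upper-quartile scaling (0.0761), with DESeq2 (adjusted p = 0.0871) and with no low-count filter (0.0688, alternatives 0.0326 to 0.186). The widely expressed Add1 did not pass (-0.11 ± 0.0511, edgeR adjusted p = 0.102), but did without CEP replicate 1 (-0.17, edgeR adjusted p = 3.75e-04, alternatives 3.75e-04 to 0.371). The log2 ratio of Add2 to Add1 was -5.84, -6.10 and -5.67 in CEP and -4.81, -4.88 and -4.97 in DMSO, a difference of -0.99. That of Add3 to Add1 differed by 0.29, and neither ratio overlapped between the groups (exact permutation p = 0.1 and adjusted p = 0.157 for both). Sptan1, which encodes the non-erythroid alpha spectrin and was the most abundant of these 4 genes per exon length, had 634, 632 and 640 CPM in CEP and 648, 647 and 630 CPM in DMSO. Its groups overlapped (-0.01 ± 0.0445, edgeR adjusted p = 0.822).

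Of 11 tested genes for other spectrins and the membrane skeleton, 4 rose, 1 fell and 6 did not pass, with a median of 0.06. The 45.5% called was near the 38.2% of all genes, with 36.4% higher against 20.1% and 9.09% lower against 18.2%. The ankyrin gene Ank2 rose (1.41 ± 0.146, edgeR adjusted p = 5.14e-06), with 11.7 ± 1.68 CPM in CEP against 4.41 ± 0.273 CPM in DMSO. The tropomodulin gene Tmod1, which encodes a cap of slow filament ends, rose (2.38 ± 0.418) but was scarce, at 1.45 ± 0.355 CPM in CEP against 0.275 ± 0.110 CPM in DMSO. Dmtn rose by 0.26 ± 0.0561 and Epb41l2 fell by 0.22 ± 0.0448. The count that fell was 3 without CEP replicate 1 and 2 without DMSO replicate 1.

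Srf (ENSMUSG00000015605, chromosome 17, 46548329 to 46556175), whose promoter holds a pair of CArG boxes, fell. It stood at 75.6, 63.0 and 67.2 CPM in CEP and at 79.4, 85.4 and 90.4 CPM in DMSO, and the highest CEP library lay just below the lowest DMSO library. The log2 fold change was -0.31 ± 0.0704 (edgeR adjusted p = 0.00343), and the call held under each of the 15 alternatives. The genes of its cofactors did not pass: Mrtfa stood at 0.03 ± 0.0615 and Mrtfb at 0.13 ± 0.0599. Of 20 tested SRF and MRTF partners and target genes outside the members, 7 fell, 1 rose and 12 did not pass, with a median of -0.13. The 40.0% called was near the 38.2% over all genes, and the 35.0% lower stood against 18.2%. Ccn2, a matricellular protein gene, fell (-1.0 ± 0.0653, edgeR adjusted p = 7.65e-08), with 65.5 ± 2.39 CPM in CEP against 131 ± 12.1 CPM in DMSO. The calponin gene Cnn2 fell by 0.47 ± 0.0576 and the vinculin gene Vcl by 0.23 ± 0.0446, while the integrin gene Itga5 rose by 0.60 ± 0.0857. The smooth muscle actin gene Acta2, Cnn1 and Tagln had 9, 12 and 12 reads over all 6 libraries and were not tested. Without CEP replicate 1, 12 of the list fell and 1 rose, in a fit where 25.7% of all genes were called lower. Without CEP replicate 2, CEP replicate 3, DMSO replicate 2 or DMSO replicate 3, 6 fell, and without DMSO replicate 1, 8 fell.

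Summed, the 49 members took 18019, 16225 and 15776 CPM in CEP and 19666, 20370 and 20368 CPM in DMSO. The CEP mean was 17.2% below the DMSO mean and the groups did not overlap. This sum describes the list and not the cytoskeleton as a whole, and abundant genes weigh most in it. Actb alone averaged 2139 CPM in CEP against 3053 CPM in DMSO. The actins differed most of the sums over several genes, at 3302 ± 328 CPM in CEP against 4450 ± 158 CPM in DMSO. Beta tubulin stood at 2430 ± 223 CPM in CEP against 3052 ± 55.1 CPM in DMSO, and myosin II at 1666 ± 68.6 CPM in CEP against 2061 ± 29.5 CPM in DMSO (SD, n = 3 each). Sums of the microtubule regulators, at 716 ± 19.3 CPM in CEP against 736 ± 22.9 CPM in DMSO, and of the membrane skeleton genes, at 920 ± 13.3 CPM in CEP against 943 ± 15.4 CPM in DMSO, overlapped between the groups.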

How the data were processed

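Poly(A)-selected bulk RNA of 3 CEP and 3 DMSO libraries was sequenced with a dUTP-stranded kit, per the labels' protocols; a single-cell source is given in 1 label field, at odds with those protocols and with a table of 6 library columns, and the data were read as bulk. The authors deposited raw read counts for each Ensembl gene with locations on GRCm38.p6 and an exon length per gene, per the file headers. The submitters' processing notes name HISAT2, HISAT, HTSeq, DESeq2 and GRCm38. How strand was set in counting, and the annotation release, is not given in the sources used here, and reads shared by near-identical genes may have been dropped.

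Low genes were removed by filterByExpr of edgeR (a count of at least 10 and a total of at least 15), and TMM factors set the library sizes. The robust quasi-likelihood test of edgeR had group as its 1 term, with Benjamini-Hochberg adjustment over 13405 genes. SE was obtained by dividing the size of the log2 fold change by the square root of F. CPM are TMM-scaled. An exact permutation test (two-sided, 20 assignments) compared paralog ratios of raw counts. The members, lists and tests were chosen with earlier results of these data known. Library values are given for Actb, Actg1, Srf, members called at an absolute log2 fold change of at least 0.3 and the most abundant member per role, taken per exon length; values of some other members were added after they were seen. Of each further list, up to 3 called genes per direction with the smallest adjusted p are named, and the cofactors of Srf, Tbce and untested genes were added after their values were seen, as were Myh14, Myh10 and Myl6b. Same-numbered CEP and DMSO libraries were not used as pairs. Replicates differed by more than sampling noise (chi-square per degree of freedom from 1.81 to 10.9), and each library counted as 1. A further gene list and a marker are not reported here. The gene test was checked on simulated counts with the same dispersion in all genes and libraries and few changed genes. That check therefore does not cover an outlying library such as CEP replicate 1, or changes in many genes. Intervals and SEs cover these libraries only. DESeq2 1.42.0, limma 3.58.1 and edgeR 4.0.16 ran in R 4.3.3.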

Additional observations from a re-analysis of the deposited data

How the results depend on the processing

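Of 27 called members, 18 (16 lower, 2 higher) kept the call under each of the 15 alternatives: other scalings, DESeq2, limma-voom, other filters, protein-coding genes only, the replicate block and each library left out. The other 9 lost it under at least 1, 8 of them without DMSO replicate 3, and none changed sign. Of 22 members not past the test, 13 passed under at least 1 alternative, all 13 without CEP replicate 1. With 1 library left out, 19 to 40 members changed (17 to 37 lower, 2 to 3 higher), and 3735 to 6905 of all genes did (2020 to 3391 higher, 1715 to 3514 lower). Only without CEP replicate 1 did the count of lower members, 37, move by over 1.5 times. With the replicate block, 28 members (25 lower) and 4896 of all genes changed; it gave calls to Tuba4a (0.0339) and Tbca (0.0344) and ended those of Tagln2 (edgeR adjusted p = 0.0774, alternatives 9.27e-06 to 0.185), Atat1 (0.0524) and Tubb4a (0.0675). Same-numbered libraries share only a number: their deviations from the group means correlated at -0.0462, 0.0245 and -0.0354. Upper-quartile scaling gave 33 lower members and moved the median of all genes to -0.02. It also called 22.1% of all genes lower, against 18.2% in the main fit. Among members not past the test, the value changed sign for Tbcd (-0.0041) and Stmn1 (-0.0073) with upper-quartile scaling. With 1 library left out it also did so for Tubb3 (-0.09 to 0.19), Tbcd (-0.06 to 0.08), Stmn1 (-0.0018 to 0.06), Map4 (-0.04 to 0.0037), Myl12b (-0.25 to 0.0046) and Tpm2 (-0.41 to 0.09). Paralog ratios changed sign for Arpc5l/Arpc5 (-0.02 to 0.13) and Tpm2/Tpm1 (-0.25 to 0.36), again with 1 library left out. The causes were not tested. Depth limits Tubb3 and Tpm2, at under 4 CPM, and Myl9. Add2 was scarce too, averaging 3.92 CPM in CEP and 8.36 CPM in DMSO. Myl12b was also counted at under 4 CPM, but its exons overlap a second gene of the same symbol, so its level is uncertain.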
